A study of Homo sapiens with 6 samples.

Results

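The genes described here are 47 genes of the NRF2 antioxidant response, of glutathione metabolism and of the thioredoxin system, found in the deposited table by gene symbol. All 47 were among its 58735 genes, and 44 passed the filter on low counts and were tested. The cells were labelled SW1990, an established pancreatic ductal adenocarcinoma line, in a treated group and a control group of 3 libraries each. The treated group was given 5 µM EPZ-5676, a small-molecule inhibitor of DOT1L, the enzyme that methylates histone H3 along transcribed genes. The control group is called untreated in the sample characteristics, but the treatment protocol has it receive the same volume of DMSO. The labels give no length of treatment and do not state whether replicates were separate cultures. The p-values therefore weigh differences only against the spread among these 6 libraries, and that spread may be technical. The comparison asked which of these mRNAs differ when DOT1L is inhibited.

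NRF2, encoded by NFE2L2, is a transcription factor that KEAP1 holds in the cytoplasm and marks for degradation until oxidants or electrophiles modify KEAP1. Freed NRF2 pairs with a small MAF protein and binds antioxidant response elements near genes for glutathione synthesis, thioredoxin recycling, quinone reduction and iron storage. Because the pathway is switched mostly through protein stability, the mRNA level of NFE2L2 does not measure NRF2 activity. The glutathione and thioredoxin systems both pass electrons from NADPH to oxidized proteins and peroxides. Pancreatic cancers are known to use NRF2 to keep reactive oxygen low.

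The core of the antioxidant response element was searched as TGACNNNGC, on both strands, in RefSeq promoter windows (build GRCh38.p14). Each window has its own gene start and runs from 250 bases before that start to 50 bases after it. Positions below refer to this start, which can differ from the gene's start in the deposited table. The GSTP1 and AIFM2 sites lie inside the table's gene bodies (chr11:67583595-67586656 and chr10:70098223-70132934). A window was found for 37 of the 47 genes, and 7 of these (18.9%) held the motif, against 15.4% of 10492 windows of genes tested. Sites upstream of the start in windows of 4 genes described below are shown 5′ to 3′ on the gene's strand, with the motif or its reverse complement GCNNNGTCA in capitals, so that they can be set beside the levels of these genes. A match is a description of the letters, not evidence of binding, and elements that lie outside the window are not seen by the search.

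GSTP1 (chr11:67583736-67583764, + strand, motif 66 to 58 bases before the start): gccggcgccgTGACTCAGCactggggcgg

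TXNRD1 (chr12:104215670-104215698, + strand, 99 to 91 bases before the start): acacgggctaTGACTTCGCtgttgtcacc

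GCLM (chr1:93909446-93909474, - strand, 34 to 26 bases before the start): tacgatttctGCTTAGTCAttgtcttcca

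AIFM2 (chr10:70132829-70132857, - strand, 22 to 14 bases before the start): cagcacgagtGCTGAGTCAcgccccgccc

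These 4 genes, of which GCLM and AIFM2 were added after their values were seen, did not move together. GSTP1 was higher in treated cells, TXNRD1 was lower, and AIFM2 did not pass the test, with the values given below. GCLM was lower only before the GC and length correction described below. By the calls before it, the motif was in 1 of 10 windows of higher genes of the list (10.0%) and 2 of 7 of lower ones (28.6%). It was in 3 of 17 windows of those not past the threshold (17.6%), and no difference between these shares was tested. TXNRD1 held the motif at 2 places, the other reaching past the start, GSTO1 also at 2, and GSTA4 and GPX2 once each.

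The libraries held 33970420 to 39749648 reads assigned to genes. In treated cells 2326 of 15496 tested genes were higher and 2899 lower, at an adjusted p under 0.05 (edgeR quasi-likelihood test, p adjusted by Benjamini-Hochberg). Fold changes of all genes followed the GC content of their transcripts, from a median log2 fold change of -0.58 in the tenth of genes poorest in GC to 0.43 in the richest. For this reason the calls below are also given after a correction that removes smooth trends with GC content and transcript length from each library. That step also removes any treatment effect that follows these properties, and whether the trend is technical was not tested. The keratins KRT8, KRT18 and KRT7 were abundant (control means of 2660, 1190 and 1880 CPM, counts per 1e6 reads on scaled library sizes), whereas CDH1 and CEACAM6 had no reads in any library, EPCAM was at 1.89 CPM and KRT19 at 0.430 CPM. The 8 listed markers of epithelial and pancreatic ductal cells thus do not all go with the label of a ductal line. The identity of the line was not tested. Of the 15 marker genes of fibroblasts, leukocytes and endothelium, COL1A1 (44.3 CPM) and DCN (33.5 CPM) had the highest control means. PTPRC, which defines leukocytes, had 153 reads in control replicate 2, 8 in treated replicate 2 and 0 in the other 4 libraries. The summed level of the 6 fibroblast markers ran from 83.9 to 93.8 CPM in controls and from 93.8 to 100 CPM in treated libraries, and COL1A1 rose (adjusted p = 0.00676) while DCN (0.0164) and LUM (0.0105) fell. That of the 5 leukocyte markers ran from 2.24 to 8.11 and from 3.85 to 5.81 CPM, and that of the 4 endothelial markers from 1.64 to 3.17 and from 1.42 to 3.25 CPM. COL1A1, DCN and LUM were not past the threshold after the correction. Their part in the results was not tested. Mitochondrially encoded transcripts took 2.36% to 2.77% of reads in controls and 2.47% to 2.57% in treated libraries; 2 of 9 were higher before and 6 after the correction. In bulk RNA, fewer cells that express a gene and less of its RNA per cell cannot be told apart.

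Of the 44 genes tested, 12 rose and 7 fell. That is 27.3% higher and 15.9% lower, beside 15.0% and 18.7% of all genes tested. Their median log2 fold change was 0.15, against -0.05 for all genes. After the correction 11 genes (25.0%) were higher and 5 (11.4%) lower, beside 5.40% and 5.58% of all genes, with medians of 0.10 and 0.00. The corrected counts rested on single libraries, and those of all genes, in brackets, moved as well from 837 higher and 864 lower of 15496. Without treated replicate 1 the list had 6 higher and 1 lower (397 and 512 of 16011). Without control replicate 3 it had 7 and 5 (523 and 705 of 16007). Without control replicates 1 and 2 it had 11 and 0 (589 and 566 of 15997) and 14 and 4 (856 and 815 of 15996). Without treated replicates 2 and 3 it had 9 and 2 (611 and 560 of 15992) and 11 and 1 (602 and 542 of 16021).

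Both fits called 10 genes in the same direction. GSTP1, GSTM3, GSTM4, FTH1, AKR1B1 and AKR1C1 rose, and NFE2L2, TXN, TXNRD1 and PRDX3 fell. A further 9 genes were called only before the correction and 6 only after it, and none changed from one called direction to the other. In 17 of the 44 genes every treated library lay above every control, and in 9 every one lay below, which is 38.6% and 20.5% beside 21.8% and 24.2% of all genes. The 47 genes together took 1.15 ± 0.0236% of the reads in controls and 1.35 ± 0.0250% in treated libraries (mean ± SD, n = 3 each).

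**Figure D1:**
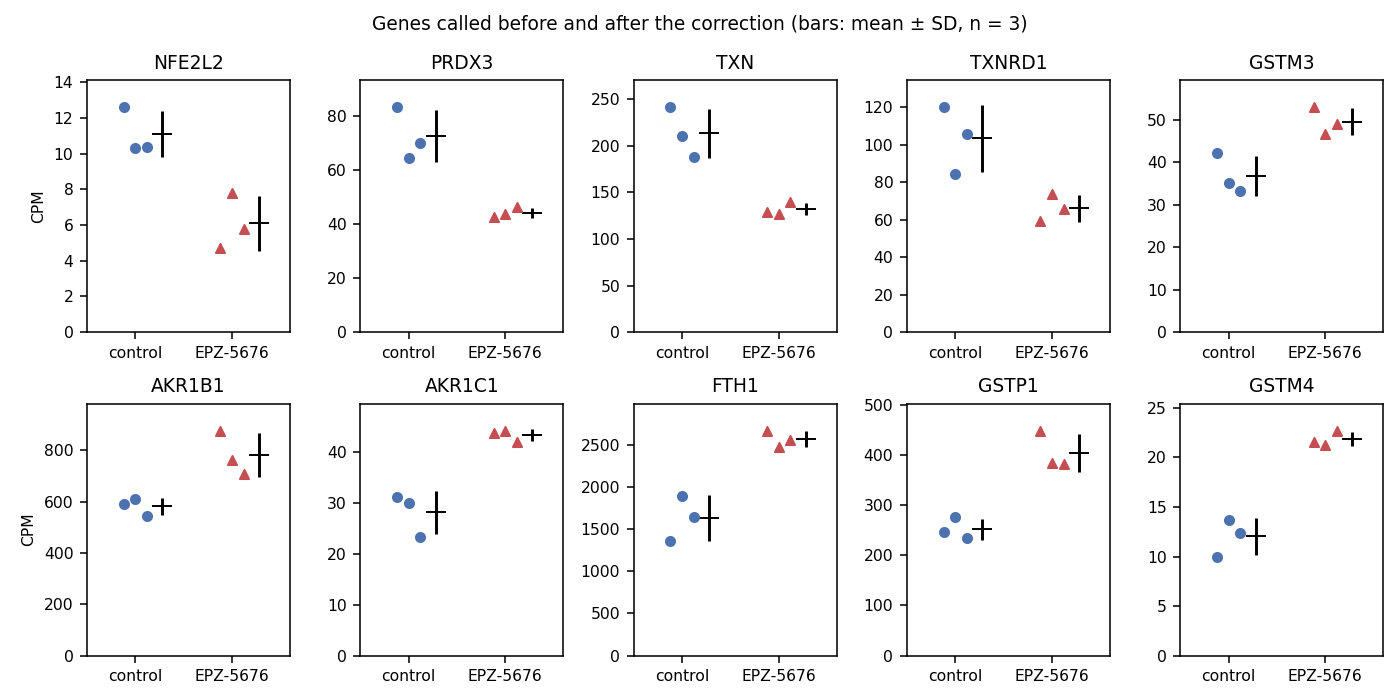
Level of the 10 genes called in the same direction before and after the correction, in CPM on the vertical axis of each panel, which starts at 0. Circles are the 3 control libraries, triangles the 3 treated libraries, and the bars give the mean ± SD; in each panel the groups do not overlap.

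NFE2L2 (ENSG00000116044, chromosome 2, 177227595 to 177392697, GRCh38), the gene of NRF2 itself, measured 12.6, 10.3 and 10.4 CPM in control libraries and 4.70, 7.78 and 5.79 CPM in treated ones. Every treated library was below every control. Its mean fell from 11.1 ± 1.32 to 6.09 ± 1.56 CPM (SD, n = 3), which on the log2 scale was a change of -0.86 ± 0.21 (SE; adjusted p = 0.00357). The corrected change was -0.62 ± 0.18 (adjusted p = 0.0269). The corrected call was lost without control replicate 1 (0.107), treated replicate 1 (0.123) or treated replicate 3 (0.0935). The gene body overlaps that of AGPS on the other strand, whose counts of 1417, 890 and 1229 in controls and 564, 706 and 830 in treated libraries were also lower. The strand setting used in counting was not stated in the labels and overlap of exons was not examined, so whether such pairs share reads is not known. KEAP1, the adaptor that targets NRF2 for ubiquitination, was at 43.9, 45.9 and 43.0 CPM in controls and 58.6, 52.0 and 48.7 CPM in treated libraries. Its difference did not pass the test (0.26 ± 0.11, adjusted p = 0.0785, but 0.0342 with DESeq2), and had the other sign after the correction (-0.10 ± 0.09, adjusted p = 0.581).

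NQO1, a quinone reductase and one of the most used readouts of NRF2, was at 150, 139 and 130 CPM in controls and 155, 150 and 139 CPM in treated libraries. The groups overlapped, and the log2 fold change was 0.08 ± 0.10 (adjusted p = 0.562). After the correction it was called higher (0.31 ± 0.08, adjusted p = 0.0157), a call lost without control replicate 3 (0.0855), treated replicate 1 (0.122) or treated replicate 2 (0.0526). HMOX1, which degrades heme and releases its iron, was at 17.6, 23.6 and 20.0 CPM in controls and rose to 33.1, 29.1 and 29.7 CPM. No treated library fell within the control range. Its log2 fold change was 0.59 ± 0.14 (adjusted p = 0.00414). Corrected, it was 0.30 ± 0.11 and not past the threshold (adjusted p = 0.0842).

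Among the genes of glutathione synthesis and recycling, 1 of 4 fell (25.0%, beside 18.7% of all genes) and none rose, and after the correction none was called. GCLM, the modifier subunit of glutamate-cysteine ligase, which makes the rate-limiting step of glutathione synthesis, fell from 15.0, 11.8 and 11.2 CPM to 10.0, 8.61 and 8.77 CPM. The log2 fold change was -0.47 ± 0.18 (adjusted p = 0.0471), with a corrected value of 0.10 ± 0.17. Only leaving out control replicate 2 kept the call, with adjusted p = 0.243 and 0.0552 without control replicates 1 and 3 and 0.0591, 0.135 and 0.132 without treated replicates 1, 2 and 3. The catalytic subunit gene GCLC was at 17.4, 14.1 and 16.2 CPM in controls and 14.2, 13.6 and 17 CPM in treated libraries, which overlap (-0.09 ± 0.16, adjusted p = 0.700). GSS, which adds glycine in the last step, had a log2 fold change of 0.24 ± 0.10 (adjusted p = 0.0796, but 0.0401 with DESeq2). GSR, the reductase that regenerates glutathione, had one of -0.27 ± 0.12 (adjusted p = 0.0885). In GSS every treated library was above the controls and in GSR every one was below, although neither passed the edgeR test.

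In the cytosol thioredoxin and its reductase both fell, while of the mitochondrial pair the reductase rose before the correction and thioredoxin did not pass the test. TXN (ENSG00000136810, chromosome 9, 110243811 to 110256640), cytosolic thioredoxin, was at 241, 210 and 188 CPM in controls and fell to 129, 127 and 139 CPM. This was a 1.62-fold fall (log2 fold change -0.70 ± 0.11, adjusted p = 0.000138). TXNRD1 (ENSG00000198431, chromosome 12, 104215779 to 104350305), the selenoprotein that reduces cytosolic thioredoxin, fell from 120, 84.3 and 106 CPM to 59.2, 73.6 and 65.5 CPM. Its log2 fold change was -0.65 ± 0.12 (adjusted p = 0.000789). In both genes the treated libraries all lay below the controls.

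After the correction the falls were smaller, at -0.27 ± 0.08 for TXN (adjusted p = 0.0334) and -0.34 ± 0.09 for TXNRD1 (adjusted p = 0.0168). The corrected TXN call was lost without control replicates 1 or 2 (0.0723 and 0.117) or treated replicates 1, 2 or 3 (0.0806, 0.174 and 0.0605). That of TXNRD1 was lost without control replicate 1 (0.0745), treated replicate 1 (0.0800) or treated replicate 3 (0.0776). The body of TXNRD1 also holds the processed pseudogene RPL18AP3, which carried 15508 to 17025 reads in controls and 17929 to 20606 in treated libraries.

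TXNRD2, the mitochondrial thioredoxin reductase, rose from 98.2, 114 and 103 CPM to 166, 128 and 143 CPM (0.48 ± 0.11, adjusted p = 0.00275). The groups did not overlap, but after the correction the log2 fold change was 0.07 ± 0.08 and not past the threshold (adjusted p = 0.646). TXN2, mitochondrial thioredoxin, was at 73.3, 74.4 and 61.0 CPM in controls and 90.4, 74.6 and 81.8 CPM in treated libraries (0.24 ± 0.11, adjusted p = 0.103). SRXN1, sulfiredoxin, which repairs over-oxidized peroxiredoxins, was low at 2.96 ± 0.223 and 3.59 ± 0.456 CPM, and its groups overlapped. In the annotation 84.5% of the 100-base stretches of its longest transcript also occur in AL121758.1, a gene that overlaps it on the same strand. AL121758.1 had 0, 0 and 0 reads in controls and 0, 0 and 1 in treated libraries. How reads of shared stretches were assigned was not stated, so the count of SRXN1 is uncertain.

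Peroxiredoxins reduce hydrogen peroxide with electrons from thioredoxin, except PRDX6, which uses glutathione. Of the 6, 1 rose and 1 fell, 16.7% each beside 15.0% and 18.7% of all genes. PRDX3, the mitochondrial peroxiredoxin, was at 83.3, 64.4 and 70.2 CPM in controls and fell to 42.7, 43.7 and 46.3 CPM, with no overlap. Its log2 fold change was -0.72 ± 0.12 (adjusted p = 0.000228), with a corrected value of -0.33 ± 0.09 (adjusted p = 0.0153, lost without control replicate 1 at 0.0557 or treated replicate 2 at 0.0762). The cytosolic PRDX2 rose from 444, 496 and 440 CPM to 643, 567 and 544 CPM (0.35 ± 0.10, adjusted p = 0.0133). That call was lost without control replicate 3 (0.0584) or treated replicate 1 (0.0586), and the corrected value was 0.10 ± 0.07 (adjusted p = 0.438).

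The other 4 peroxiredoxin genes did not pass the edgeR test. PRDX6, also a phospholipase, was at 209, 227 and 231 CPM in controls and 282, 260 and 239 CPM in treated libraries (0.23 ± 0.10, adjusted p = 0.0806, but 0.0299 with DESeq2). It was called higher after the correction (0.51 ± 0.09, adjusted p = 0.000671). The cytosolic PRDX1 was at 415 ± 9.08 and 401 ± 14.5 CPM, and PRDX4, the peroxiredoxin of the endoplasmic reticulum, at 448 ± 21.0 and 462 ± 29 CPM. PRDX5 was at 656 ± 60.1 and 720 ± 104 CPM. In these last 3 genes the groups overlapped, with log2 fold changes of -0.05 ± 0.10, 0.04 ± 0.10 and 0.13 ± 0.11.

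Glutathione peroxidases split by gene before the correction and none was called after it. GPX4, the selenoenzyme that detoxifies lipid hydroperoxides and restrains ferroptosis, was at 524, 582 and 506 CPM in controls and rose to 913, 745 and 723 CPM. Its log2 fold change was 0.56 ± 0.11 (adjusted p = 0.000853), with a corrected value of 0.18 ± 0.08 (adjusted p = 0.151). GPX1, the abundant cytosolic enzyme, which the deposited table lists under the biotype polymorphic pseudogene, rose from 1590, 1600 and 1430 CPM to 2340, 1910 and 1960 CPM (0.43 ± 0.11, adjusted p = 0.00484). The corrected value was 0.01 ± 0.08 (adjusted p = 0.969). GPX8, a peroxidase of the endoplasmic reticulum, fell from 20.3, 16.9 and 17.3 CPM to 11.1, 9.01 and 12 CPM (-0.76 ± 0.17, adjusted p = 0.00201). Its corrected log2 fold change was -0.27 ± 0.15 (adjusted p = 0.266). In all 3 genes the groups did not overlap. The transcripts of GPX1 and GPX4 hold 64.2% and 62.5% GC, and that of GPX8 40.8%.

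GPX2 and GPX3, the gastrointestinal and the secreted plasma peroxidase, and GSTM2 had too few reads to pass the filter. GPX2 had 0, 0 and 4 reads in controls and 2, 4 and 1 in treated libraries. GPX3 had 10, 3 and 14, and 0, 0 and 12. GSTM2 had 0, 0 and 1, and 5, 0 and 2.

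Of 9 glutathione transferase genes tested, 3 rose and none fell, and after the correction 5 were higher and none lower. These higher shares of 33.3% and 55.6% stand beside 15.0% and 5.40% of all genes. These enzymes attach glutathione to electrophiles, those of the MGST family within membranes. GSTP1 (ENSG00000084207, chromosome 11, 67583595 to 67586656), the main transferase of many epithelial tumours, was at 246, 276 and 235 CPM in controls and 449, 384 and 382 CPM in treated libraries. The lowest treated library was above the highest control. GSTP1 rose 1.61-fold (log2 fold change 0.68 ± 0.10, adjusted p = 0.000137), with a corrected value of 0.29 ± 0.07 (adjusted p = 0.0124). The corrected call was lost without control replicate 3 (0.0636), treated replicate 1 (0.0559) or treated replicate 2 (0.0521).

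GSTM4 (ENSG00000168765, chromosome 1, 109656081 to 109674836) was at 10.0, 13.7 and 12.4 CPM in controls and rose to 21.6, 21.3 and 22.7 CPM. Its groups were well apart, at 1.82-fold (0.86 ± 0.16, adjusted p = 0.000588), and the corrected value was 0.74 ± 0.13 (adjusted p = 0.000865). It stayed past the threshold in all 24 alternative fits. GSTM3 (ENSG00000134202, chromosome 1, 109733932 to 109741038) rose from 42.1, 35.1 and 33.2 CPM to 52.9, 46.6 and 49.0 CPM (0.43 ± 0.12, adjusted p = 0.0110). Its call was lost without control replicate 3 (0.0638) or treated replicate 1 (0.0567). After the correction it was larger, at 0.69 ± 0.11 (adjusted p = 0.000245), and was kept without any single library. The GSTM genes lie in a cluster on chromosome 1, and the bodies of GSTM4 and GSTM2 overlap on the same strand. In the longest transcript of GSTM4, 2.72% of 100-base stretches also occur in other GSTM genes, and in that of GSTM3 none. The 5 GSTM genes summed to 50.5 ± 3.33 CPM in controls and 74.2 ± 3.11 CPM in treated libraries.

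GSTO1 and MGST3 were called only after the correction. GSTO1 was at 258, 239 and 219 CPM in controls and 264, 247 and 246 CPM in treated libraries, which overlap. Its log2 fold change of 0.08 ± 0.10 (adjusted p = 0.557) became 0.31 ± 0.08 with the correction (adjusted p = 0.00996, but 0.0755 without control replicate 3 and 0.0638 without treated replicate 1). MGST3 was at 153, 152 and 136 CPM and at 166, 152 and 148 CPM, with 0.08 ± 0.10 (adjusted p = 0.551) and 0.42 ± 0.09 (adjusted p = 0.00350). The other 4 tested transferases, GSTA4, GSTK1, MGST1 and MGST2, had log2 fold changes from -0.26 for MGST1 to 0.16 for GSTK1 and were called in neither fit. MGST1 was the only one of these with all treated libraries below the controls, at 42.3, 50.4 and 47.3 CPM against 59.5, 53.9 and 54.8 CPM. GLRX, a glutaredoxin that removes glutathione from proteins, fell from 106, 97.4 and 92.3 CPM to 80.3, 76.0 and 85.8 CPM (-0.29 ± 0.10, adjusted p = 0.0361), and its corrected value was 0.00 ± 0.08. Only leaving out control replicate 3 kept the call: adjusted p = 0.125 and 0.0559 without control replicates 1 and 2, and 0.0853, 0.144 and 0.0564 without treated replicates 1, 2 and 3.

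**Figure D2:**
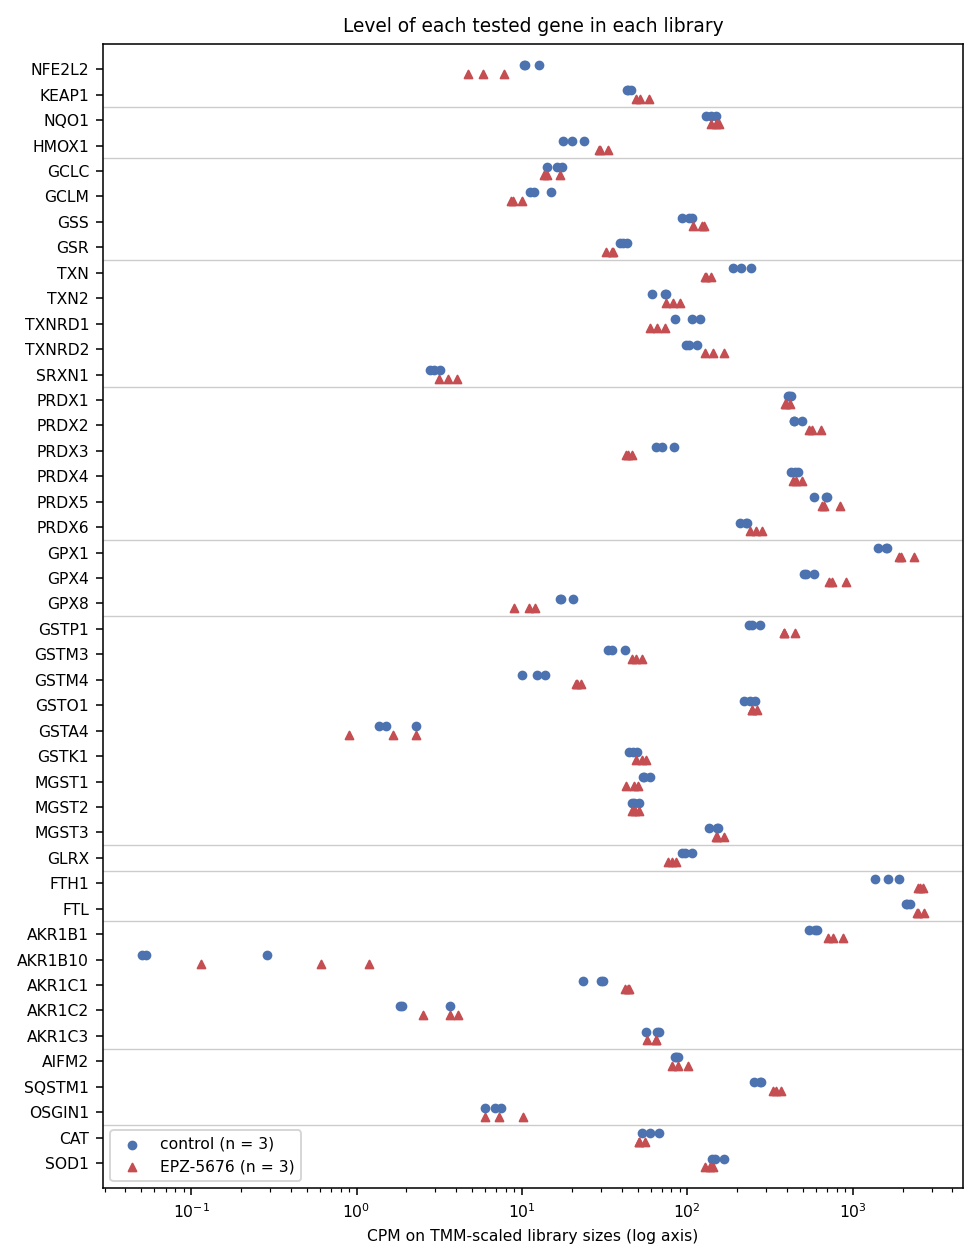
Level of each of the 44 tested genes in each library, as CPM on a log axis, with genes in rows and lines between roles. Circles are the 3 controls and triangles the 3 treated libraries; thioredoxin, TXNRD1 and PRDX3 lie to the left in treated cells, and FTH1, GSTP1 and GSTM4 to the right.

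Ferritin stores iron in a shell of heavy and light chains, and the heavy chain oxidizes the iron on entry. FTH1 (ENSG00000167996, chromosome 11, 61959718 to 61967660), the heavy chain, was at 1360, 1900 and 1640 CPM in controls and 2670, 2480 and 2560 CPM in treated libraries. The treated libraries were tightly grouped and above all controls. FTH1 rose 1.57-fold, from 1630 ± 268 to 2570 ± 91.9 CPM (log2 fold change 0.65 ± 0.12, adjusted p = 0.000438). The corrected value was close to it, at 0.69 ± 0.09 (adjusted p = 6.17e-05), and the call held in all 24 alternative fits. FTH1 has many processed pseudogenes: 20.2% of the 100-base stretches of its longest transcript occur in 8 other genes. The summed level of 25 FTH1 pseudogenes was 48.6 ± 4.11 CPM in controls and 73.0 ± 7.34 CPM in treated libraries.

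FTL, the light chain, was at 2110, 2220 and 2130 CPM in controls and 2700, 2460 and 2470 CPM in treated libraries. The groups did not overlap, but the difference was not past the threshold (0.24 ± 0.10, adjusted p = 0.0647; 0.0102 with DESeq2 and 0.0344 with limma-voom), and was 0.03 ± 0.07 after the correction (adjusted p = 0.852). The 2 chains took 0.389 ± 0.0249% of reads in controls and 0.496 ± 0.00470% in treated libraries. Per kilobase of the table's gene length, FTL had the highest control level of the 47 genes (2450 CPM per kb), followed by GPX1 (1080), FTH1 (805) and PRDX5 (735). NFE2L2 stood at 1.86 CPM per kb.

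Aldo-keto reductases reduce aldehydes, ketones and steroids, and several are among the strongest NRF2 targets in human cells. Of 5 tested, 2 rose and none fell, and after the correction 3 were higher (40% and 60%, beside 15.0% and 5.40% of all genes). AKR1B1 (ENSG00000085662, chromosome 7, 134442350 to 134459284), aldose reductase, was at 589, 610 and 545 CPM in controls and 876, 760 and 709 CPM in treated libraries, with no overlap. Its log2 fold change was 0.43 ± 0.10 (adjusted p = 0.00421), with a corrected value of 0.29 ± 0.08 (adjusted p = 0.0194). The corrected call was lost without control replicate 3 (0.0843), treated replicate 1 (0.106) or treated replicate 2 (0.0535). AKR1C1 (ENSG00000187134, chromosome 10, 4963253 to 4983283), a hydroxysteroid dehydrogenase, rose from 31.0, 30.0 and 23.3 CPM to 43.7, 44.1 and 41.9 CPM. This was 1.54-fold (0.62 ± 0.13, adjusted p = 0.00151) and 1.04 ± 0.13 on the log2 scale after the correction (adjusted p = 3.8e-05), past the threshold in all 24 alternative fits.

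AKR1C3, a steroid dehydrogenase, was at 67.7, 65.6 and 56.2 CPM in controls and 64.7, 57.1 and 64.5 CPM in treated libraries. These ranges overlap, and the log2 fold change was -0.02 ± 0.11 (adjusted p = 0.886). With the correction the gene was called higher (0.45 ± 0.10, adjusted p = 0.00595, but 0.0606 without treated replicate 1). AKR1C2 was low, at 1.84, 3.69 and 1.88 CPM and 3.67, 2.51 and 4.12 CPM, and did not pass (0.48 ± 0.32, adjusted p = 0.260). The AKR1C genes share sequence, with 17.4% of 100-base stretches of the longest AKR1C1 transcript and 32.9% of those of AKR1C2 found in other genes, so the split of reads between them is uncertain. Summed, AKR1C1 and AKR1C2 were at 32.9, 33.7 and 25.1 CPM in controls and 47.4, 46.6 and 46.0 CPM in treated libraries.

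AKR1B10, a tumour-associated reductase, had the most extreme log2 fold change of the list, 2.28 ± 0.90, on few reads. It had 2, 10 and 2 reads in controls and 37, 4 and 24 in treated libraries, which overlap, and the difference was not past the threshold (adjusted p = 0.0562, and 0.0912 after the correction, but 0.0435 with DESeq2).

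Of the remaining genes, SQSTM1 alone was called before the correction. It encodes p62, an autophagy receptor that binds KEAP1, and rose from 278, 275 and 254 CPM to 366, 345 and 329 CPM (0.37 ± 0.10, adjusted p = 0.00705). The groups were apart, but the corrected value was 0.07 ± 0.08 (adjusted p = 0.650). Its body overlaps that of MGAT4B on the other strand, which had 7244 to 8280 reads in controls and 10056 to 11923 in treated libraries. AIFM2, known as FSP1, which suppresses ferroptosis without glutathione, was at 85.7, 88.4 and 83.9 CPM and at 101, 87.8 and 81.3 CPM. OSGIN1, a growth inhibitor induced by oxidative stress, was at 6.01, 7.44 and 6.83 CPM and at 7.27, 5.96 and 10.2 CPM. In both the groups overlapped, with log2 fold changes of 0.06 ± 0.11 and 0.21 ± 0.22.

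CAT, catalase, and SOD1, the cytosolic superoxide dismutase, did not pass before the correction. CAT was at 67.0, 53.3 and 59.8 CPM in controls and 51.3, 55.6 and 51.3 CPM in treated libraries (-0.19 ± 0.11, adjusted p = 0.209). SOD1 was at 166, 147 and 140 CPM and at 143, 127 and 138 CPM (-0.15 ± 0.10, adjusted p = 0.261). SOD1 was called lower after the correction (-0.30 ± 0.08, adjusted p = 0.0253), a call lost without control replicate 1 (0.144) or treated replicates 1, 2 or 3 (0.0763, 0.138 and 0.0648).

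**Figure D3:**
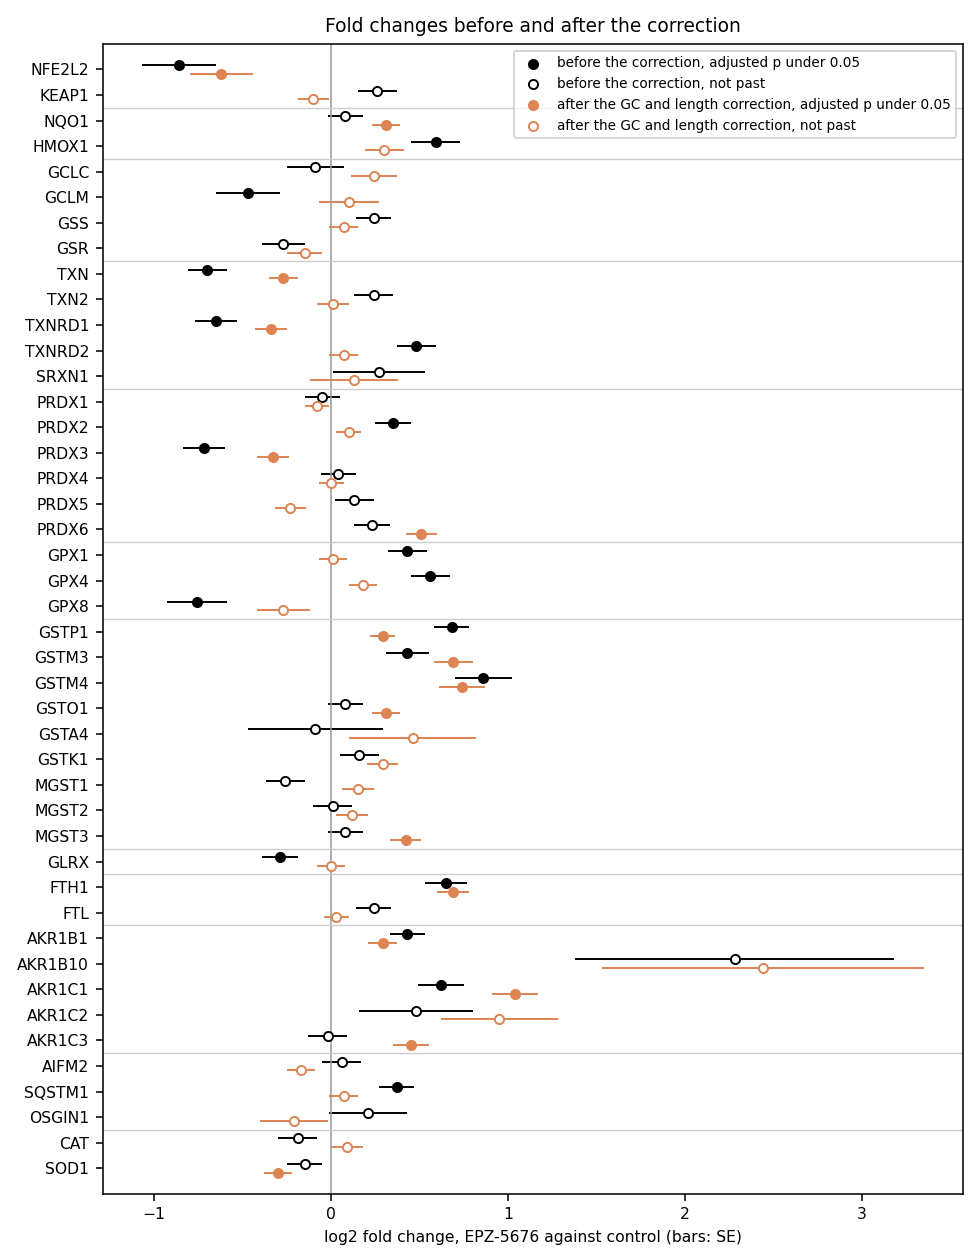
Log2 fold change of EPZ-5676 against control for the 44 tested genes, with SE bars, before (black) and after (orange) the correction. Filled points passed an adjusted p of 0.05; GPX1, GPX4, TXNRD2 and SQSTM1 move toward 0 with the correction, while AKR1C1, GSTM3 and PRDX6 move away from it.

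The position of a gene on the GC scale moved with its fold change. Across the 44 genes the Pearson correlation of transcript GC content with log2 fold change was 0.40, and -0.20 after the correction. Over 15487 genes with a GC value it was 0.59 and 0.00. These are descriptions across genes that share the same 6 libraries. Of the 1549 tested genes richest in GC (61.9% to 83.9%), 769 were called higher and 6 lower before the correction. The 5 members among them were GPX1, GPX4, GSTP1, TXNRD2 and OSGIN1, and 4 of these were called higher before the correction and 1 after it. The 10 called in both fits ran from 42.4% GC in AKR1C1 to 62.5% in GSTP1. Among them, AKR1C1 and GSTM3, at 42.4% and 45.6%, were higher although genes of like GC content were lower on the median.

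**Figure D4:**
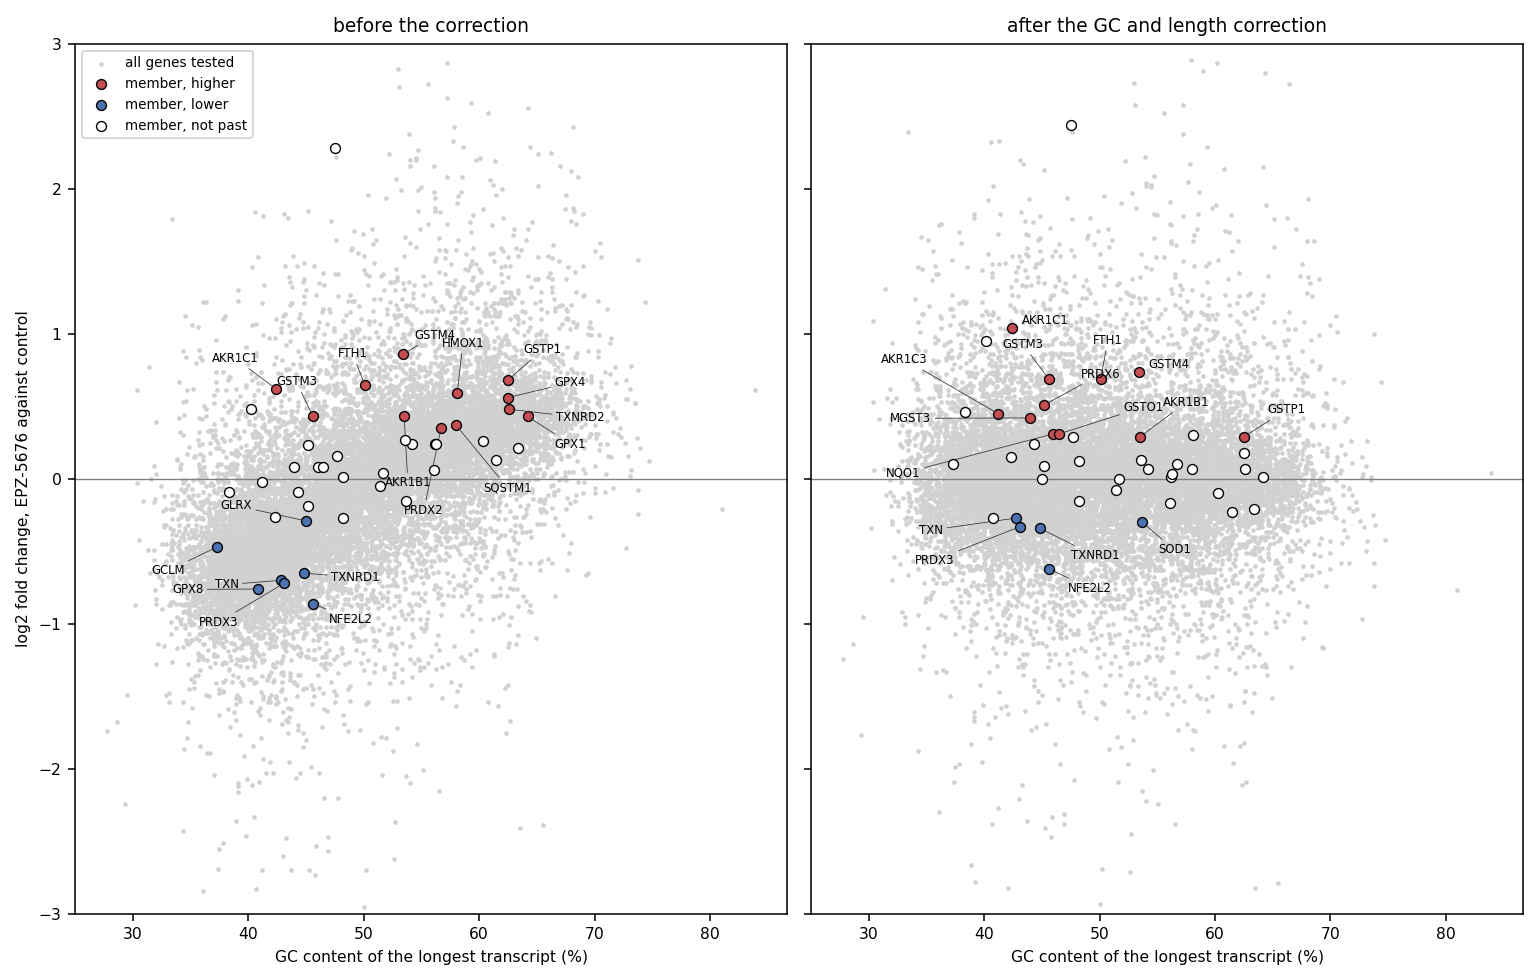
Log2 fold change against GC content of the longest transcript (%), before (left) and after (right) the correction, for all tested genes in grey and the 44 members in colour. Members past the threshold are labelled; in the left panel the 7 lower members lie at or under 45.6% GC, and 14 genes (6 on the right) fall outside the vertical axis.

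Other genes of the same pathways were counted from 8 lists, each described by its counts and its median log2 fold change before and after the correction, beside -0.05 and 0.00 for all genes. Of all genes 15.0% were higher and 18.7% lower, and 5.40% and 5.58% after the correction. In the lists the shares ran from 12.5% to 29.4% higher and from 7.14% to 37.5% lower, and after the correction from 0% to 22.2% and from 0% to 14.3%. Among 14 tested regulators and relatives of NRF2, 3 were higher and 1 lower, and after the correction 0 and 1 (medians 0.05 and -0.01). BACH1, a repressor that competes with NRF2 for its elements, fell (-0.65 ± 0.17, adjusted p = 0.00527), and its partner MAFK rose (0.30 ± 0.10, adjusted p = 0.0227). DPP3, a KEAP1-binding peptidase, rose as well (0.39 ± 0.13, adjusted p = 0.0247). None of these 3 passed after the correction (-0.10, -0.11 and 0.05), when MAFG alone was called (-0.27, adjusted p = 0.0440). The more abundant NFE2L1 (0.18 ± 0.10) and RBX1 (-0.13 ± 0.11) were called in neither fit.

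Of 14 enzymes that supply NADPH, 2 were higher and 5 lower, and after the correction 0 and 2 (medians -0.06 and -0.08). The mitochondrial enzymes ME2 (-0.82 ± 0.14) and NNT (-0.62 ± 0.12) fell. After the correction ME2 (-0.32) and NNT (-0.10) did not pass. Of 21 genes of cystine uptake and glutathione turnover, 3 were higher and 5 lower (0 and 3 after the correction; medians -0.12 and -0.19). GGCT (-0.80 ± 0.17), which splits glutamyl dipeptides, fell, while OPLAH (0.75 ± 0.17) and GGT1 (0.71 ± 0.16), which also act in glutathione breakdown, rose. After the correction GGCT (-0.39), OPLAH (0.29) and GGT1 (0.32) did not pass.

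Of 15 further glutathione transferases, peroxidases, glutaredoxins and related enzymes, 2 were higher and 4 lower (3 and 1 after the correction, medians 0.15 and 0.02). The glyoxalase GLO1 (-0.64 ± 0.11), the esterase ESD (-0.74 ± 0.15) and GSTCD (-1.02 ± 0.22) fell, and none of the 3 passed after the correction (-0.12, -0.20 and -0.51). Of 18 other genes of the thioredoxin fold and of peroxide handling, 4 were higher and 5 lower (4 and 1 after it, medians 0.10 and 0.15). SOD2, the mitochondrial superoxide dismutase, fell from 71.1 ± 8.85 to 41.8 ± 0.649 CPM (-0.77 ± 0.11, adjusted p = 0.000114), and was at -0.27 after the correction (adjusted p = 0.0822). TXNDC9 fell in both fits (-1.14 ± 0.17 and -0.60). CCS, the copper chaperone of SOD1, rose (0.58 ± 0.11), but not after the correction (0.17). TXNIP, the thioredoxin inhibitor, was at 0.21 ± 0.10 (adjusted p = 0.106) and was called higher after the correction (0.56, adjusted p = 5.6e-05).

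Of 17 other NRF2 targets of quinone, carbonyl and conjugation metabolism, 5 were higher and 2 lower (3 and 0 after the correction, medians 0.13 and 0.12). ALDH3A1, an aldehyde dehydrogenase, rose from 1.25 ± 0.356 to 4.42 ± 0.534 CPM, and the epoxide hydrolase EPHX1 from 38.0 ± 3.54 to 56.5 ± 7.54 CPM, in both fits (corrected log2 fold changes 1.49 and 0.34). AKR7A2 (0.49 ± 0.10) rose before the correction only. Of 16 genes of iron handling and ferroptosis, 2 were higher and 6 lower (2 and 1 after the correction, medians -0.22 and -0.07). STEAP3, a ferrireductase, rose (0.64 ± 0.10, and 0.39 corrected) and NCOA4, the receptor that delivers ferritin to lysosomes, fell from 152 ± 35.2 to 88.0 ± 9.69 CPM (-0.79 ± 0.13, and -0.39 corrected, adjusted p = 0.00761). The transferrin receptor gene TFRC fell (-0.84 ± 0.16), but its corrected value of -0.36 was not past the threshold (adjusted p = 0.0725).

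Of 19 genes of selenoprotein synthesis and other selenoproteins, 5 were higher and 4 lower (2 and 0 after the correction, medians -0.02 and 0.06). Selenoproteins matter here because the GPX and TXNRD enzymes described above, GPX8 excepted, carry selenocysteine. SELENON (0.72 ± 0.14) and SELENOM (0.52 ± 0.10) rose and SELENOF (-0.75 ± 0.11) fell. After the correction SELENON was still called (0.40, adjusted p = 0.0203), and SELENOM (0.15) and SELENOF (-0.19) were not.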

How the data were processed

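HISAT2 2.2.1 and the build GRCh38 (hg38) are named in the submitters' processing notes. Per the labels' protocols, polyadenylated RNA was captured on oligo(dT) beads and the strand was marked with dUTP. The authors deposited raw read counts per gene and gene lengths in bases. Neither the program that counted reads, nor the strand it assumed, nor the annotation release was stated in the labels or headers. All 58735 genes had the start and end of GENCODE release 29, which gave transcript GC content, length and shared 100-base stretches (longest transcript).

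Samples were grouped by title. Counts were tested over all genes with edgeR 4.0.16 in R 4.3.3: filterByExpr (minimum count 10), TMM scaling, robust two-sided quasi-likelihood test, Benjamini-Hochberg adjustment, threshold 0.05. SEs are the log2 fold change divided by the square root of F. The correction fitted natural splines (5 degrees of freedom each) of GC content and log2 length to each library's deviations in log2 CPM (prior count 2), used as offsets. On simulated data 67 of 100 genes changed 2-fold and 15 of 100 changed 1.5-fold were recovered among 15250 genes, with 3 false calls. With a GC and length trend added to the treated libraries, over 15231 genes, false calls numbered 2098 without the correction and 4 with it. That trend was of the form the correction removes. Of 100 genes changed 2-fold, 78 were then recovered without the correction and 82 with it. Of 100 changed 1.5-fold, 41 and 11 were, so most changes of that size were missed with the correction. Alternatives used DESeq2 1.42.0 and limma 3.58.1 (voom), other scalings, filters, a replicate block and left-out libraries.

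All 47 genes are named. Of each pathway list the called genes with the 3 smallest p and the 2 most abundant uncalled genes per length were eligible; MAFG, and the promoter sites of GCLM and AIFM2, were added after their values were seen, and 2 genes of the lists are not reported here. The genes, lists and correction were chosen with earlier results of these data known. Figures used matplotlib 3.10.9.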

Additional observations from a re-analysis of the deposited data

How the results depend on the processing

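FTH1, GSTM4 and AKR1C1 kept their direction and stayed past the threshold in all 24 alternatives. The GC and length correction lowered the calls over all genes from 2326 higher and 2899 lower to 837 and 864, GC alone to 762 and 730, and GC and length with the replicate block to 689 and 685. The cause of this drop was not tested. Corrected calls without control replicates 1, 2 and 3 were 589 and 566, 856 and 815, and 523 and 705; without treated replicates 1, 2 and 3 they were 397 and 512, 611 and 560, and 602 and 542. Correcting for length alone gave 2784 higher and 2228 lower, so that 55.5% of calls were higher instead of 44.5%. Uncorrected, leaving out 1 library gave 1350 to 2780 higher and 1753 to 3167 lower.

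Of the 44 members tested (45 without control replicates 1 or 2 or treated replicates 1 or 2), the corrected fit gave 11 higher and 5 lower, and 11 and 4 with the replicate block, under which TXN was lost (adjusted p = 0.0551). Without control replicates 1, 2 and 3 it gave 11 and 0, 14 and 4, and 7 and 5; without treated replicates 1, 2 and 3 it gave 6 and 1, 9 and 2, and 11 and 1. Uncorrected counts ran from 10 to 16 higher and from 5 to 6 lower without 1 library. DESeq2 called 17 higher and 6 lower. Over all 15496 genes it called 2811 higher and 2793 lower, against 2326 and 2899 with edgeR. Its median log2 fold change lay 0.04 above that of edgeR. The 5 higher calls it added among the members were KEAP1 (adjusted p = 0.0342), GSS (0.0401), PRDX6 (0.0299), FTL (0.0102) and AKR1B10 (0.0435). FTL was also past the threshold with limma-voom (0.0344), with upper quartile scaling (0.0468) and without control replicate 2 (0.0451). KEAP1 (0.0488) and AKR1B10 (0.0463) were with RLE scaling, GSS was without control replicate 2 (0.0400), and AKR1B10 was with protein-coding genes alone (0.0408) and without control replicate 2 (0.0191) or treated replicate 2 (0.0238). GCLM was not past the threshold with RLE scaling (0.0653), upper quartile scaling (0.0537) or no filter (0.0637), and GLRX not with RLE scaling (0.0822), no filter (0.0538) or DESeq2 (0.0622).

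The correction with GC and length changed the sign of 11 members, most of them called in neither fit. Values of GCLM, GPX1, GLRX and AKR1C3, each called in 1 of the fits, on the other side of 0 from the uncorrected value follow. Those without a library have the GC and length correction unless given as uncorrected. GCLM was at 0.1004 log2 with GC and length, 0.1038 with GC and 0.0984 with the block added, and at 0.1566 and 0.1472 without control replicates 1 and 2 and 0.1859 and 0.1654 without treated replicates 2 and 3. GPX1 was at -0.0057 with GC, and at -0.0438 and -0.0338 without control replicates 2 and 3 and -0.0189 without treated replicate 1. GLRX was at 1e-04 and 0.0057, and at 0.0079 and 0.0328 without control replicates 1 and 2 and 0.0603 without treated replicate 2. AKR1C3, uncalled before the correction, was at 0.4482, 0.4491 and 0.4493, and at 0.4161, 0.5544 and 0.3792 without control replicates 1, 2 and 3 and 0.5288 and 0.4411 without treated replicates 2 and 3. It was also above 0, but not called, at 0.36 without treated replicate 1. Uncorrected and not called, it was at 0.01 with RLE scaling and with DESeq2. Without control replicates 1 and 2 it was at 0.04 and 0.02 uncorrected, and without treated replicate 2 at 0.03 uncorrected.

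Replicate numbers did not pair the libraries: deviations of same-numbered libraries correlated at -0.111, -0.093 and 0.047. With the replicate block, calls over all genes were 1677 higher and 2219 lower, and members 12 and 5, with GCLM (0.0885) and GLRX (0.0933) lost. GPX2, GPX3 and GSTM2 failed the filter on low counts. With no filter none was called (adjusted p = 0.839, 0.575 and 0.501), and GPX3, which also passed the filter without control replicates 1 or 2 or treated replicates 1 or 2, was not called there either, with or without the correction (0.379 to 0.771).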
